A study of Mus musculus with 12 samples.

Results

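The interleukin-6 (IL-6) family and its STAT3 feedback were followed in 12 tumour RNA sequencing libraries through 10 genes, taken by name from a table of 21899 genes. The members were the ligand genes Il6, Il11, Lif and Osm, the receptor genes Il6ra, Il6st, Lifr and Osmr, the transcription factor gene Stat3 and the feedback inhibitor gene Socs3, and 10 of 10 were found. The tumours were grown from 4T1-LUC cells, a mouse mammary carcinoma line labelled as a breast cancer cell, placed under the skin of the chest wall and lateral abdominal wall of BALB/c mice. The mice were 4 to 6 weeks old, with body weights of 18 to 20 g. The 4 groups of 3 libraries were control (200 µL of corn oil by gavage each afternoon), curcumin (100 mg/kg, dissolved in that oil), swimming (corn oil by gavage and, 30 min later, 30 min of swimming) and combination (curcumin, then the same swimming). All 4 groups carried tumours and received corn oil, and the study compared joint curcumin and swimming with either alone. For the swimming libraries the treatment label names corn oil alone, so that group rests on the sample titles and the protocol. Sex, length of the intervention, time of sampling, pooling and whether libraries came from separate tumours were not given, so every p-value reflects the spread among these libraries, which may be technical.

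The ligands followed here signal through receptor complexes that hold the shared signalling chain gp130, the product of Il6st. Receptor-bound Janus kinases (JAKs) phosphorylate STAT3, which enters the nucleus and binds sites with the core TTCNNNGAA, where N is any base. SOCS3, itself induced by STAT3, binds gp130 and the kinases and limits further signalling. In tumours these cytokines come from cancer cells, fibroblasts and myeloid cells, and the pathway is known for its roles in survival, inflammation and wasting. Transcript counts do not measure cytokine protein or phosphorylated STAT3.

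The Socs3 upstream region is shown because Socs3 is the STAT3-induced member of the family and was the 1 member whose promoter window held the STAT3 core. Windows from 250 bases before to 50 bases after each RefSeq start (GRCm38.p6) were searched. The core is palindromic and reads the same on both strands. Of 32851 such windows of 300 bases, 2726 (8.3%) held at least 1 TTCNNNGAA, and so did 1 of 11 windows (9.09%) of the 9 members with a window. Osm had no window in that table. The stretch lies on the minus strand of chromosome 11, at chr11:117969472-117969560 of GRCm38.p6, 194 to 106 bases before the RefSeq start. The core, in capitals, spans bases 154 to 146 before that start. In the GENCODE M21 annotation of GRCm38 the coding Socs3 transcript starts 180 bases further downstream, and the stretch overlaps no Socs3 exon but lies within an intron of another annotated Socs3 transcript. The window ended 50 bases after the RefSeq start, so the bases directly upstream of that coding start were not searched.

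Socs3 upstream stretch: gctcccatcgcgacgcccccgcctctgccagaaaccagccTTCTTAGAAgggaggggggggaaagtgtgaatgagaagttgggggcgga

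The share of member windows with the core was close to that of all windows, and a match is a description of sequence and not of binding.

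The libraries held 15069348 to 17278826 counts each. Tumour epithelium markers (8 of 9 tested) were present in every library, at a summed 2799 to 3654 CPM (counts scaled to library size by TMM). Control 2 stood apart from the other libraries. It had the lowest fibroblast marker level (-1.051, a mean of centred log2 CPM) and skeletal muscle level (-3.324) and the highest neutrophil level (1.12). Spread within groups was uneven, with a biological coefficient of variation of 26.7% among controls and 12.4%, 16.3% and 6.47% among curcumin, swimming and combination libraries. The combination libraries lay apart in the mitochondrially encoded genes used to follow RNA quality (9 of 9 tested; level 0.195 to 0.552, against -0.424 to 0.162 in the other 9). They also lay apart in endothelium markers (8 of 8 tested; 0.541 to 0.728, against -1.186 to 0.347) and in adipocyte markers (5 of 8 tested; 1.867 to 1.971, against -1.329 to 0.603). In bulk tumour RNA, fewer cells of a type and less RNA per cell cannot be told apart.

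Per gene length, the negative feedback gene and its inducer were the most abundant members. FPKM (counts scaled to gene length and library total) over the 12 libraries was 39.7 ± 8.03 (SD, n = 12) for Socs3 and 37.8 ± 3.94 for Stat3, above 93.9% and 93.5% of the 17495 detected genes. The shared chain Il6st (21.4 ± 2.71), the oncostatin M receptor chain Osmr (18.8 ± 3.51) and the leukaemia inhibitory factor gene Lif (18.4 ± 2.61) followed. Il6ra stood at 7.37 ± 1.43 and Osm at 5.32 ± 1.37. Il11 (1.77 ± 0.312), Il6 (0.964 ± 0.399) and the leukaemia inhibitory factor receptor gene Lifr (0.751 ± 0.215) were lowest, with Il6 above 35.4% of detected genes. Neighbours in this order overlapped in their 12 values, except Stat3 over Il6st, Lif over Il6ra and Osm over Il11. Lif was thus the most abundant of the 4 ligands, and Il6 the least.

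**Figure D1:**
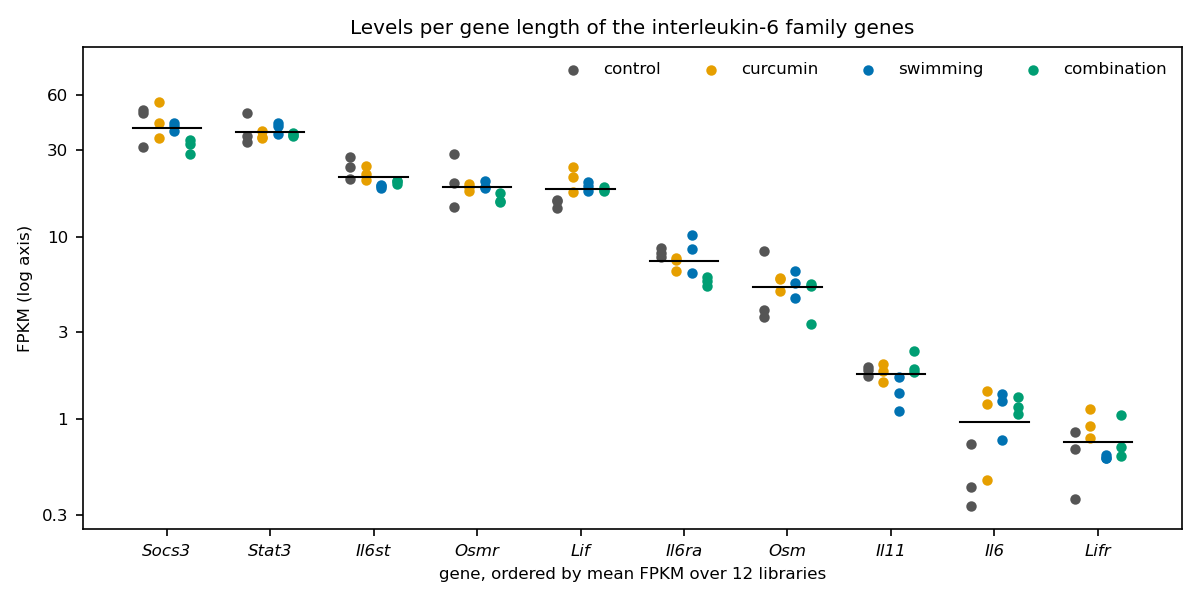
FPKM (log axis) of the 10 members, 1 point per library coloured by group, with a line at the mean over 12 libraries. Genes run from Socs3 at 39.7 to Lifr at 0.751, and the ligand Lif at 18.4 lies far above Il6 at 0.964.

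At an adjusted p of 0.05 or below (edgeR quasi-likelihood test, Benjamini-Hochberg over 13638 genes tested, all 10 members among them), none of the 10 members was called in any of the 3 comparisons with control. The share of all genes called was 0% for curcumin, 0.293% for swimming and 5.17% for combination. At an unadjusted p under 0.05, 2, 3 and 5 members were found in these comparisons, and 1512, 1787 and 3676 of all genes. The median member log2 fold change was -0.03, 0.04 and -0.12, beside 0.00, -0.01 and -0.02 over all genes tested. Called by DESeq2 instead were Lif with curcumin (adjusted p = 0.039) and Il6 and Il6ra in the combination (adjusted p = 0.038 and 0.020). DESeq2 called 0.692%, 2.38% and 12.6% of all genes in the comparisons of curcumin, swimming and combination with control. The comparisons share the control libraries, so their values stand side by side and are not independent.

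**Figure D2:**
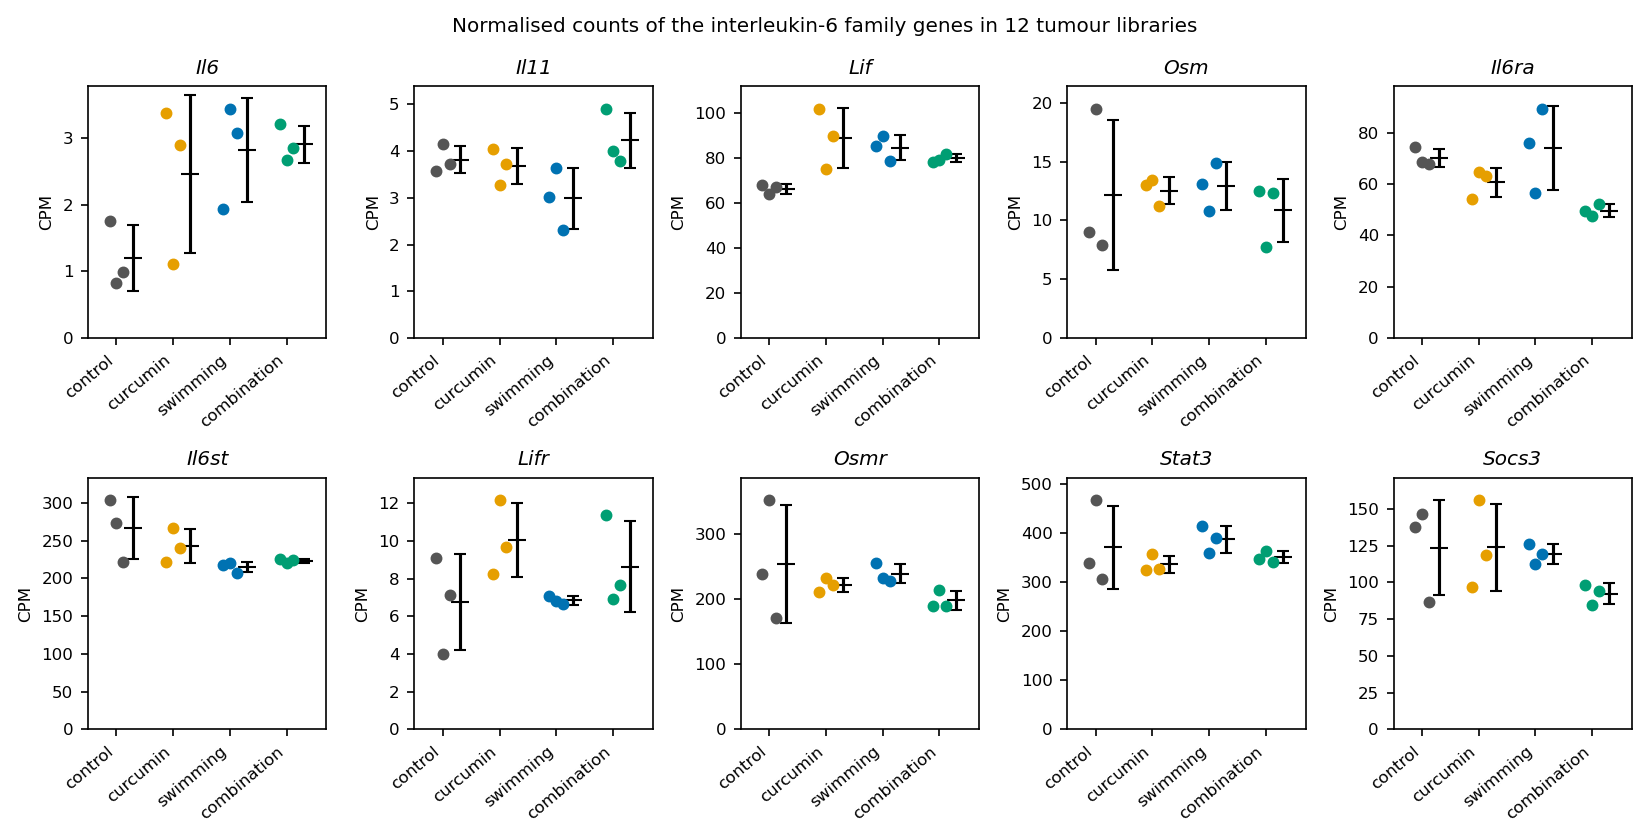
CPM of each member by group, 1 point per library, with the mean and SD of 3 libraries beside the points; each panel has its own axis from 0. Lif in all 9 treated libraries, at 75.4 to 102, lies above the 3 controls, at 64.0 to 68.1, as do 0.579% of all genes tested. Il6ra in the combination, at 47.4 to 52.2, lies below the libraries of the other 3 groups. The share of all genes placed like Il6ra was not computed.

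Among the ligands, Lif was higher in every treated library than in every control. Lif encodes leukaemia inhibitory factor, which signals through Lifr and gp130. Its CPM was 68.1, 64.0 and 67.1 in the 3 controls, 102, 75.4 and 90.2 with curcumin, 85.5, 89.8 and 78.7 with swimming, and 78.5, 79.3 and 82.0 in the combination. All 9 treated libraries exceeded all 3 controls for Lif and for 79 genes in all (0.579% of those tested). The log2 fold change against control was 0.43 ± 0.10 (SE) with curcumin, 0.35 ± 0.10 with swimming and 0.27 ± 0.10 in the combination. None passed the test, with adjusted p = 0.29, 0.17 and 0.12 (edgeR).

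For Lif the combination estimate lay below the sum of the single estimates, but the difference did not pass. The interaction, the swimming effect under curcumin minus that without curcumin, was -0.51 ± 0.14 on the log2 scale, with adjusted p = 0.21 (edgeR). No member was called for the interaction, where 0.139% of all genes were. Of the member estimates 8 of 10 were negative, where 50.4% of all genes were positive. Only 1 member had an unadjusted p under 0.05 (edgeR), beside 1507 of all genes. The estimates share the same libraries, so their signs are not independent. Fibroblast markers were at a level of -1.051 to 0.334 in controls and 0.105 to 0.511 with curcumin. With swimming they were at -0.735 to -0.268 and in the combination at 0.362 to 0.397. Their part in the Lif values was not tested.

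Il6, the gene of the founding ligand, was read from few counts. The counts were 29, 14 and 17 in controls, 56, 17 and 45 with curcumin, 29, 52 and 49 with swimming and 53, 44 and 45 in the combination. In CPM the groups stood at 1.19 ± 0.495 (SD, n = 3), 2.46 ± 1.19, 2.82 ± 0.779 and 2.91 ± 0.277 in that order. Swimming and combination libraries, at 1.94 CPM or more, all lay above the highest control at 1.76, while curcumin 2, at 1.11, lay among the controls. Fitted log2 fold changes were 1.05 ± 0.42, 1.24 ± 0.42 and 1.28 ± 0.42 (SE), with adjusted p = 0.41, 0.24 and 0.086 (edgeR). These were the largest member changes, and their 95% intervals were also the widest, from 0.37 to 2.19 in the combination. Without control 1, the control with the most Il6, the combination estimate was 1.67 and passed (adjusted p = 0.034), and without control 2 it was 1.08 (adjusted p = 0.20).

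The CPM of some members did not overlap between treated and control libraries. In curcumin against control, 2 members (Lif higher, Il6ra lower) had no overlap between the groups' CPM, beside 14.6% of all genes. In swimming against control these were Il6 and Lif, higher, and Il6st, lower (3 members, with 13.1% of all genes). In the combination they were Il6 and Lif, higher, and Il6ra, lower (3 members, with 32.1% of all genes).

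Il11, whose product is made by stromal and tumour cells and uses its own receptor chain with gp130, had no overlap between groups only for swimming and combination. Its CPM was 3.57, 4.14 and 3.73 in controls, 4.04, 3.27 and 3.73 with curcumin, 3.01, 3.64 and 2.32 with swimming and 4.90, 4.00 and 3.79 in the combination. Every combination library exceeded every swimming library, as for 20.4% of all genes (40.6% had no overlap in either direction). The log2 difference was 0.50 ± 0.23 (SE), with adjusted p = 0.17 (edgeR).

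Osm encodes oncostatin M, a product of myeloid and T cells. Its CPM was 8.97, 19.5 and 7.94 in controls, 13.0, 13.4 and 11.2 with curcumin, 13.1, 10.8 and 14.9 with swimming and 12.5, 7.75 and 12.3 in the combination. Control 2 held the highest Osm. It also had the highest neutrophil level, while its summed neutrophil CPM, 791, was below the 857 to 930 of the curcumin libraries. Against control the Osm changes were 0.05, 0.09 and -0.16, each with an SE of 0.30, and without control 2 they became 0.57, 0.61 and 0.36. Adjusted p then ranged from 0.12 to 0.57. The part of neutrophil content in the Osm values was not tested. In the table's coordinates Osm (4186420 to 4191026 on chromosome 11) and Lif (4207557 to 4222514) are neighbours, 16.5 kb apart with 0 listed genes between them. Lif at 64.0 CPM and Osm at 19.5 CPM in control 2 were, respectively, the lowest and the highest of the 12 libraries.

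Among the receptors, Il6ra was lowest in the combination. It encodes the ligand-binding chain of the IL-6 receptor, which myeloid cells, hepatocytes and some T cells carry, and it can be shed by ADAM proteases. Its CPM was 74.5, 68.7 and 67.7 in controls, 54.4, 64.8 and 63.0 with curcumin, 76.3, 56.6 and 89.4 with swimming and 49.6, 47.4 and 52.2 in the combination. The 3 combination libraries lay below the other 9. The share of all genes set apart in this way was not computed. Pairwise, 15.8%, 18.5% and 20.2% of all genes were lower without overlap against control, curcumin and swimming. Against swimming the log2 fold change was -0.58 ± 0.14 (SE), with adjusted p = 0.032 (edgeR). This was the only member call in the 7 contrasts, 1 of 10 members where 6.88% of all genes were called.

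That call was lost in 8 of 21 alternative settings, with estimates of -0.73 to -0.42 over all 21. DESeq2 kept it (-0.57, adjusted p = 0.0049), where 1886 of all genes were called. The edgeR call was lost when any of 6 libraries was left out: curcumin 3, swimming 1, swimming 3 or any combination library. Adjusted p then lay between 0.054 and 0.12, and the estimate without swimming 3, the library with the most Il6ra, was -0.42. With the 3 combination libraries summed into 1, assumed to vary like the other groups, adjusted p was 0.49. Against control the Il6ra change in the combination was -0.50 ± 0.14 (SE; adjusted p = 0.055, edgeR), which passed without swimming 2 or swimming 3 (adjusted p = 0.022 and 0.035). Against curcumin it was -0.29 ± 0.14 (adjusted p = 0.29). No member was called in combination against curcumin, where 0.895% of all genes were. In that comparison Il6ra was the 1 member whose groups did not overlap, with 37.1% of all genes.

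Marker values for the cells that can carry Il6ra were mixed. The neutrophil level (10 of 11 markers tested, none of the 11 at 0 in any library) was -0.948 to -0.871 in the combination and 0.518 to 0.557 in swimming. The summed neutrophil CPM overlapped, at 736 to 766 and 748 to 816. Macrophage markers (9 of 9 tested, none at 0) summed to 1021 to 1036 CPM in the combination and 768 to 1295 in swimming, so the combination lay within the range of swimming. RNA quality, endothelium and adipocyte levels were also higher in the combination than in swimming, without overlap, as given above. The part of these in the Il6ra difference was not tested.

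**Figure D3:**
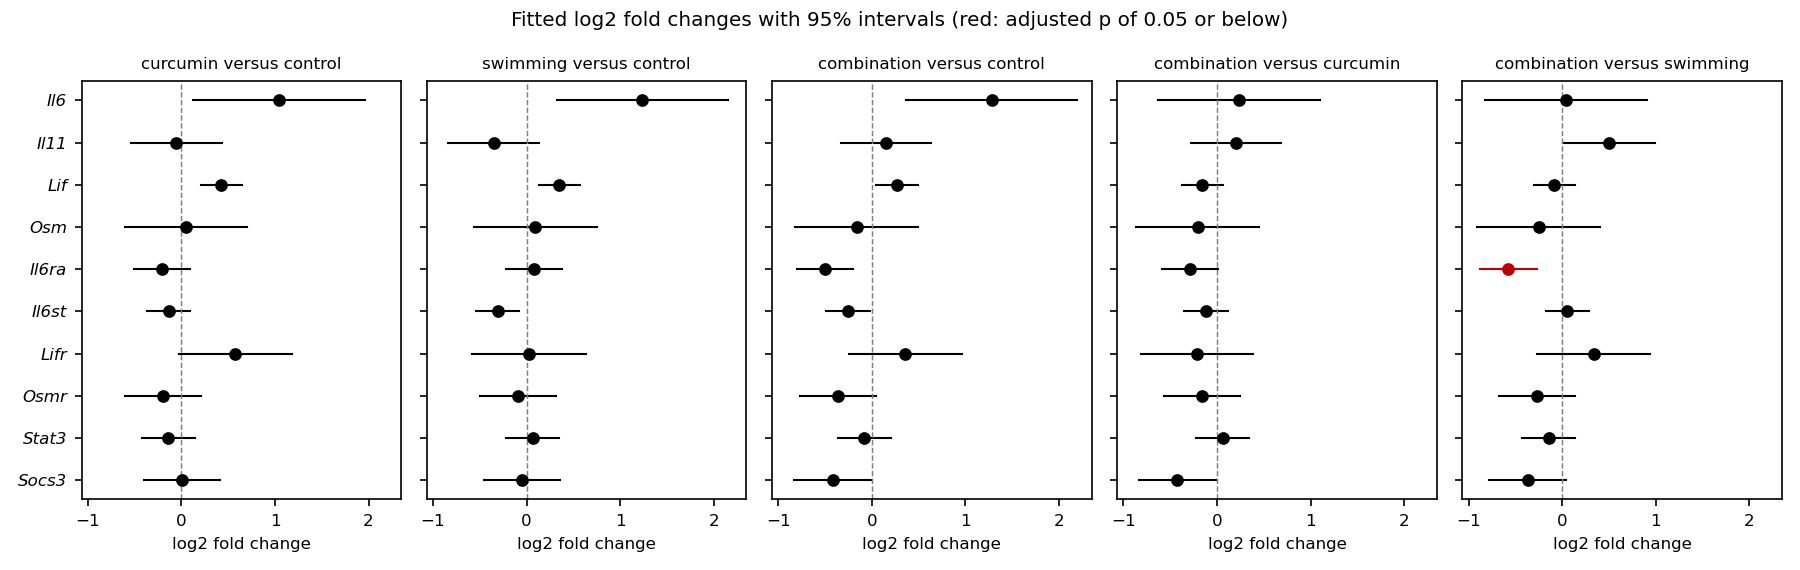
Fitted log2 fold changes of the 10 members in 5 comparisons; points are estimates, bars are 95% intervals, and red marks an adjusted p of 0.05 or below. Only Il6ra in combination against swimming (-0.58) is red, and the bars of Il6, with 14 to 56 counts a library, are the longest.

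Il6st, the shared signal-transducing chain, varied little among treated groups. Its CPM was 303, 274 and 222 in controls, 221, 266 and 241 with curcumin, 218, 220 and 207 with swimming and 225, 221 and 225 in the combination. All swimming libraries lay below all controls, and control 3 lay just above the highest swimming library. The log2 fold change was -0.31 ± 0.11 (SE) with swimming (adjusted p = 0.24) and -0.25 ± 0.11 in the combination (adjusted p = 0.15, edgeR). Without control 1 these became -0.20 and -0.15.

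Lifr, the chain that pairs with gp130 for leukaemia inhibitory factor, was at 9.09, 4.02 and 7.12 CPM in controls and at 8.26, 12.2 and 9.70 with curcumin. It was at 7.10, 6.81 and 6.64 with swimming and at 11.4, 6.90 and 7.65 in the combination. Swimming libraries all lay below curcumin libraries, by -0.55 ± 0.28 on the log2 scale (adjusted p = 0.27, edgeR). In swimming against curcumin no member was called (1.9% of all genes were). The 3 members without overlap were Stat3, higher, and Il6st and Lifr, lower, where 30.9% of all genes had none.

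Osmr, the oncostatin M receptor chain, lies 215.6 kb from Lifr on chromosome 15, with 0 listed genes between them. Its CPM was 238, 352 and 171 in controls, 211, 233 and 222 with curcumin, 255, 233 and 228 with swimming and 190, 215 and 190 in the combination. The controls spanned the whole range of the treated libraries, with control 2 highest and control 3 lowest of all 12. The change against control was -0.19, -0.09 and -0.36, each with an SE of 0.19, with adjusted p = 0.71, 0.90 and 0.24 (edgeR). Without control 2 these became 0.12, 0.22 and -0.05.

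Stat3 gave estimates near 0 against control. Its CPM was 338, 466 and 306 in controls, 325, 356 and 326 with curcumin, 413, 359 and 388 with swimming and 347, 364 and 340 in the combination. The 95% interval of the log2 fold change was -0.42 to 0.14 with curcumin, -0.22 to 0.35 with swimming and -0.36 to 0.20 in the combination. These intervals leave room for moderate changes in either direction. Control 2, again the highest library, set the control mean, and without it the combination estimate turned from -0.08 to 0.12.

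Socs3 had similar means in control, curcumin and swimming, and a lower mean in the combination. Its CPM was 137, 147 and 86.9 in controls, 97.1, 156 and 119 with curcumin, 126, 113 and 119 with swimming and 98.5, 84.7 and 94.0 in the combination. Group values were 124 ± 32.1 (SD, n = 3), 124 ± 29.6, 119 ± 6.76 and 92.4 ± 7.06. The combination lay below all swimming libraries, while control 3, at 86.9, lay within the combination's range. RNA quality, endothelium and adipocyte levels were higher and the neutrophil level (-0.948 to -0.871) lower in the combination than in any other library, and their part in the Socs3 values was not tested.

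On the log2 scale Socs3 in the combination differed by -0.42 ± 0.19 (SE) from control, -0.42 ± 0.19 from curcumin and -0.37 ± 0.19 from swimming. The adjusted p-values were 0.18, 0.26 and 0.22 (edgeR). The first became -0.28 without control 2, and the second -0.22 without curcumin 2. In a fit of swimming and combination alone, the swimming comparison gave -0.36 with adjusted p = 0.016 (edgeR). That fit called 2719 of all genes, beside 938 in the main fit. In combination against swimming 5 members had no overlap, beside 40.6% of all genes. They were Il11 and Il6st, higher, and Il6ra, Osmr and Socs3, lower.

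The relation of Socs3 to the ligand transcripts and to Stat3, upstream of it in the pathway, was examined over the 12 libraries in 5 pairs. With Socs3, Pearson's r of log2 CPM was 0.57 for Osm (permutation p = 0.056, adjusted 0.18) and 0.53 for Stat3 (permutation p = 0.073, adjusted 0.18). It was -0.45 for Il6 (permutation p = 0.144, adjusted 0.24), -0.35 for Il11 (0.266, adjusted 0.333) and -0.29 for Lif (0.362, adjusted 0.362). Spearman's rho was 0.65 for Osm (permutation p = 0.0254, adjusted 0.127), 0.43 for Stat3 (0.169, adjusted 0.281), -0.35 for Il6 (0.266, adjusted 0.331), -0.45 for Il11 (0.139, adjusted 0.281) and -0.31 for Lif (0.331, adjusted 0.331). No pair passed after adjustment over the 5.

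The signs for Osm and Stat3 were positive, and those for Il6, Il11 and Lif negative. Without the 2 libraries farthest from the median of the first gene, r was 0.26 for Osm (control 2 and combination 2 left out) and 0.30 for Stat3 (control 2 and swimming 1). It was -0.75 for Il6 (controls 2 and 3), -0.42 for Il11 (swimming 3 and combination 1) and 0.04 for Lif (control 2 and curcumin 1). With each library centred on its group mean, r was 0.56 for Osm, 0.67 for Stat3, -0.42 for Il6, -0.15 for Il11 and -0.63 for Lif. The exact p-values from permutation within groups were 0.244, 0.187, 0.34, 0.541 and 0.0957 in that order.

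**Figure D4:**
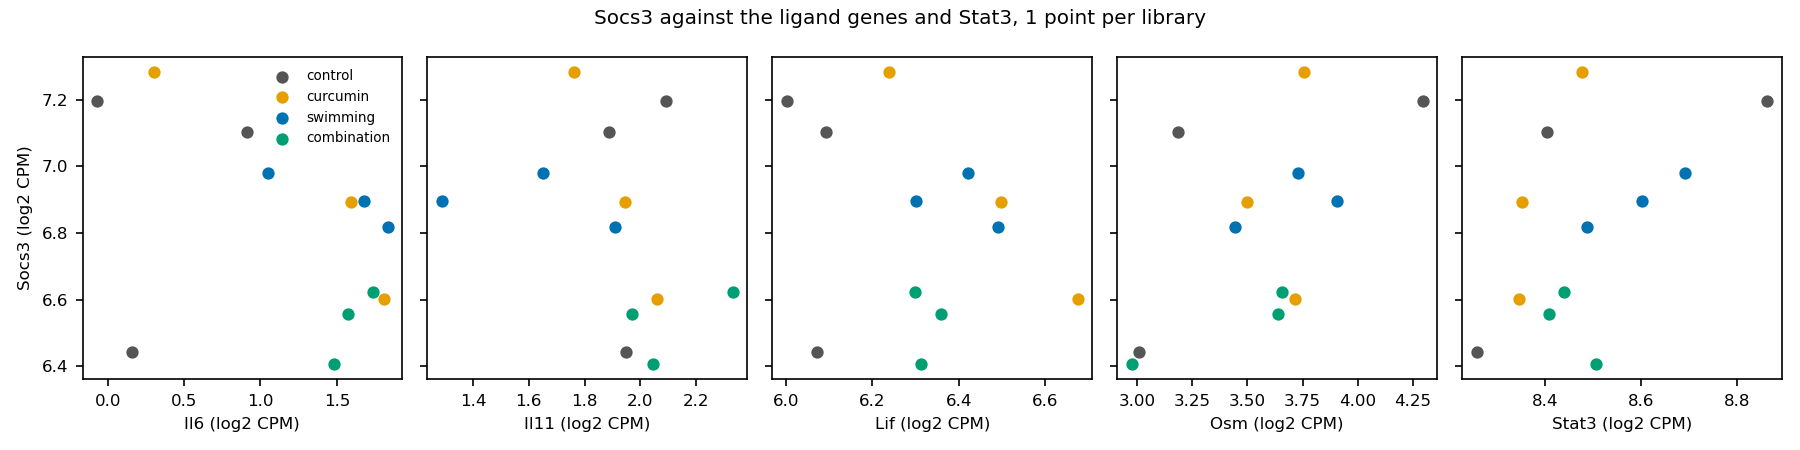
Socs3 (y axis, log2 CPM) against Il6, Il11, Lif, Osm and Stat3 (x axes, log2 CPM), 1 point per library coloured by group. Control 2 is the point farthest right in the Osm and Stat3 panels, where r is 0.57 and 0.53, and control 3 is the low grey point at the left of the Il6 panel.

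The genes whose log2 CPM followed Socs3 most closely over the 12 libraries, among 13637 compared, were Pi4ka (r = 0.94), Egln3 (0.92), Timp2 (0.92), Trpv2 (0.92) and Mgat1 (0.91). For Il6 they were Csnk1a1 (r = 0.92), Rlim (0.90), Taok1 (0.89), U2surp (0.89) and Dhx9 (0.88). None of these is a member or a gene of the pathway lists. All were read from the same 12 libraries, and the part of tumour composition in these values was not tested.

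Of 11 other ligand and receptor genes of the family, 8 passed the filter on low counts (Cntf, Ctf2 and Il31ra did not), and 0 were called in the 7 contrasts by edgeR. At an unadjusted p under 0.05, 1, 1 and 0 were found for curcumin, swimming and combination against control, beside 1512, 1787 and 3676 of all genes. DESeq2 called 0 of the 8 in each of these. In combination against curcumin DESeq2 called 1, Clcf1, beside 5.13% of all genes. The ligand subunit genes Il27 and Ebi3 and the cytokine gene Clcf1 illustrate their range. Il27 was at 0.485 to 1.05 CPM in controls, 0.900 to 2.61 with curcumin and 1.27 to 1.82 with swimming, log2 changes of 1.06 and 1.04 (adjusted p = 0.44 and 0.38, edgeR). Without curcumin 2 the first was 0.39. Ebi3 was at 3.41 ± 0.429 CPM in controls and 1.99 ± 0.418 in the combination (log2 change -0.78, adjusted p = 0.22). Clcf1 gave -0.32 with curcumin and 0.31 in the combination, and the receptor gene Il11ra1 gave -0.43 with swimming (adjusted p = 0.50, 0.26 and 0.40). The Clcf1 values became -0.09 and 0.54 without control 1 (the latter with adjusted p = 0.029) and -0.48 and 0.15 without control 2.

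Of 20 genes of kinases, sheddases and negative regulators, 20 passed the filter and 0 were called against control by edgeR. At an unadjusted p under 0.05, 3, 3 and 6 were found for curcumin, swimming and combination, beside 1512, 1787 and 3676 of all genes. DESeq2 called Socs1 and Socs2 with swimming (adjusted p = 0.033 and 0.050) and Adam17 in the combination (adjusted p = 0.042). Of all genes DESeq2 called 2.38% with swimming and 12.6% in the combination. In the other contrasts 2 were called by edgeR, in combination against curcumin (0.895% of all genes called) and swimming against curcumin (1.9%). Ptpn6, which encodes the phosphatase SHP-1, was at 78.4 ± 7.63 CPM with curcumin and 53.2 ± 2.31 in the combination, -0.56 ± 0.11 (SE) on the log2 scale (adjusted p = 0.038, edgeR). Socs1, the feedback inhibitor best known downstream of interferons, was at 19.2 ± 3.09 CPM with curcumin and 7.28 ± 0.822 with swimming, -1.40 ± 0.22 (adjusted p = 0.017). Against its control level of 13.0 ± 4.52 CPM, Socs1 gave 0.56 with curcumin and -0.84 with swimming (adjusted p = 0.39 and 0.15). Socs2 gave 0.46 with swimming, and the sheddase gene Adam17 and the kinase gene Tyk2 gave -0.27 and -0.30 in the combination (adjusted p = 0.15, 0.071 and 0.085).

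Both calls were lost in some alternative settings, while the estimates stayed at -0.63 to -0.49 for Ptpn6 and -1.50 to -1.27 for Socs1. The Ptpn6 call was lost in 10 of 21 alternative settings, 8 of them the omission of control 3, swimming 1 or any 1 curcumin or combination library (adjusted p of 0.051 to 0.16). The Socs1 call was lost in 3 of 20 settings, without curcumin 2, curcumin 3 or swimming 1 (adjusted p = 0.077, 0.088 and 0.10). The uncalled Socs1 change with swimming was -1.05 and passed without control 2 (adjusted p = 0.011), and was -0.54 without control 1. The Socs1 change with curcumin was 0.86 without control 1 and 0.35 without control 2.

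Of 25 genes known to be induced through Stat3, 25 passed the filter and edgeR called only Irf1, also a target of interferons and NF-kB. Against control DESeq2 called 0 with curcumin, 1 with swimming (Vegfa, adjusted p = 0.0062) and 6 in the combination (Cebpb, Hif1a, Hp, Irf1, Lcn2 and Pim1). Of these 6, 2 were higher and 4 lower. DESeq2 called 0.692%, 2.38% and 12.6% of all genes in the same comparisons. Irf1 was at 170 ± 3.24 CPM in controls, 214 ± 23.3 with curcumin, 171 ± 15.9 with swimming and 131 ± 4.51 in the combination. The combination differed by -0.37 ± 0.09 (SE) from control, -0.71 ± 0.09 from curcumin and -0.38 ± 0.09 from swimming (adjusted p = 0.043, 0.011 and 0.032, edgeR). In these comparisons 5.17%, 0.895% and 6.88% of all genes were called. The 3 calls were lost in 12, 6 and 8 of 21 alternative settings, each without any 1 combination library or without curcumin 3, and the sign was negative in all of them. Omitting control 2, control 3, curcumin 1 or swimming 1 also ended the first call, curcumin 2 the second, and swimming 1 or swimming 3 the third. Lcn2, the lipocalin gene with neutrophil and epithelial expression, was at 25.4 to 26.4 CPM in the combination and 25.8 to 357 in controls, with a log2 change of -2.46 ± 0.74 (adjusted p = 0.067, and 0.026 with DESeq2). It was -2.95 without control 1 (adjusted p = 0.012) and -0.44 without control 2 (adjusted p = 0.39).

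Directions within the list of 25 were mixed. In the combination 11 of 25 estimates were positive, with a median of -0.14 beside -0.02 over all genes, and with curcumin 16 were positive, with a median of 0.17 beside 0.00. With swimming 10 were positive, with a median of -0.03 beside -0.01. Among its other genes named by the rule, Vegfa, the angiogenic growth factor gene, gave 0.79 with swimming (adjusted p = 0.11, and 0.030 without control 2) and Bcl3 gave -0.47 (adjusted p = 0.34, and -0.18 without control 1). Bcl2l1, an anti-apoptotic gene, gave -0.33 and Irf1 gave 0.34 with curcumin (adjusted p = 0.36 and 0.30). Without control 2 the Bcl2l1 value was -0.16.

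**Figure D5:**
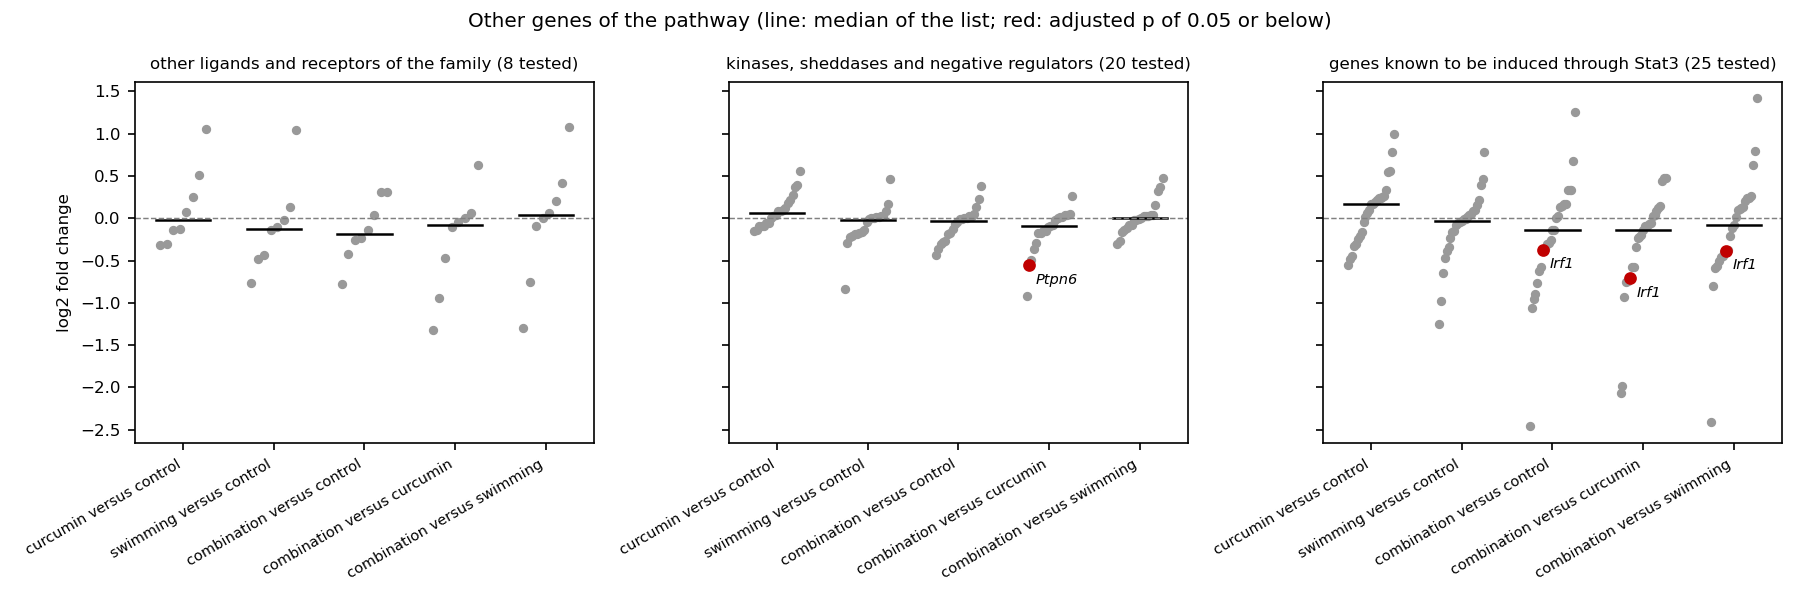
Log2 fold changes of the tested genes of 3 pathway lists in 5 comparisons, 1 grey point per gene in order of size, with a line at the list's median and red for an adjusted p of 0.05 or below. The red points are Ptpn6 (-0.56) and Irf1 (-0.37, -0.71 and -0.38), and the medians lie between -0.19 and 0.17.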

How the data were processed

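The deposited table holds whole read counts and FPKM values that the authors made for 21899 genes in 12 libraries. Per the submitters' processing notes, cutadapt, TopHat2, HISAT2, HTSeq 0.9.1 and DESeq 1.30.0 were used with GRCm39. Per the labels' protocol, reads were mapped to mm9 with HISAT2 2.0.5. The build is therefore stated in 2 ways, and table coordinates are given as the table holds them. The strand setting of counting was not given in the sources used here, so reads from overlapping antisense genes could not be told apart. The deposited FPKM values equalled count over length and library total for 184877 of 184877 values above 0 (relative tolerance 1e-05).

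The filterByExpr rule, with a minimum count of 10 and a minimum total of 15, left 13638 genes, scaled by TMM. edgeR 4.0.16 (R 4.3.3) fitted all 12 libraries by group, with quasi-likelihood F-tests and 8 residual degrees of freedom. Contrasts numbered 7: 3 against control, 3 between treatments and the interaction. The prior count for log2 CPM was 2. Correlations had two-sided permutation p-values from 100000 resamples. The fit was tested on simulated data. Alternatives were RLE scaling, DESeq2 1.42.0, limma 3.58.1 voom with a weight per group, a mean count of at least 50, no filter, only the groups compared, a replicate block, the combination libraries summed, each library left out and, added after seeing the data, a robust fit.

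The members and lists were chosen with earlier results of these data known. All members were named. From each list, genes called in any contrast (up to 6) and the 2 of smallest p in each comparison with control were named, and for Il6 and Socs3 the 5 genes of highest r. Of the genes this rule names, 1 is not reported here. Cebpb, Hif1a, Hp and Pim1, called by DESeq2, were named after their values were seen. The labels do not say that a replicate number marks a shared animal, litter, batch or day, so numbers were not taken to pair libraries. Same-numbered libraries of different groups correlated, in deviations from group means, at -0.25 to 0.16, with 2 of 18 pairs over 0.1. With 3 libraries a group these values cannot decide whether libraries were paired. Protein sequences were not used here.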

Additional observations from a re-analysis of the deposited data

How the results depend on the processing

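Members called stayed at 0 in swimming against control, swimming against curcumin and the interaction under every alternative run. With DESeq2, 1 was called in curcumin and 2 in combination against control. Fitting only the groups compared called 1 in combination against curcumin and 3 in combination against swimming, and summing the combination libraries called 0 there. Leaving out each library gave 0 to 1 in combination against control and 0 to 1 in combination against swimming.

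With the replicate number as a block, 0 members were called in combination against swimming (Il6ra -0.57, adjusted p = 0.051), and all genes called numbered 1, 4, 203, 27, 512, 62 and 5 (curcumin, swimming and combination against control, combination against curcumin and against swimming, swimming against curcumin, interaction), beside 0, 40, 705, 122, 938, 259 and 19. In the same order, DESeq2 called 87, 318, 1656, 700, 1886, 1032 and 217. Only the groups compared gave 0, 0, 94, 2083, 2719 and 639 without the interaction, and voom 0, 0, 403, 1933, 2797, 907 and 36. Summing the combination libraries gave 0 in its 4 contrasts. No filter gave 3 and 40 for curcumin and the interaction, where RLE gave 34, a mean count of at least 50 gave 32 and the robust fit 34. Leaving out a library gave 0 to 10, 0 to 639, 4 to 2267, 2 to 719, 28 to 2730, 3 to 1580 and 0 to 448.

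Socs3 with curcumin turned to -0.0025 with RLE and -0.0024 with DESeq2. Leaving out each library changed signs with ranges of -0.18 to 0.57 (Osm), -0.126 to 0.0249 (Il11), -0.41 to 0.12 (Osmr), -0.261 to 0.0616 (Stat3) and -0.20 to 0.15 (Socs3) for curcumin. For swimming they were -0.14 to 0.61 (Osm), -0.251 to 0.0897 (Socs3), -0.24 to 0.30 (Lifr), -0.31 to 0.22 (Osmr), -0.0565 to 0.264 (Stat3) and -0.0815 to 0.238 (Il6ra), and for the combination -0.39 to 0.36 (Osm) and -0.20 to 0.12 (Stat3). With Socs3, r without each library was -0.78 to -0.29 for Il6, 0.44 to 0.74 for Osm and -0.53 to -0.10 for Lif (0.0358 without its 2 farthest libraries), passing for Il6 without control 3 (adjusted permutation p = 0.018) or controls 2 and 3 (-0.75, 0.049) and for Osm without control 1 (0.042). The causes were not tested. Few counts limited Il6, at 14 to 56 a library.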
